A study of Mus musculus with 35 samples.

Results

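Loss of TET3 was examined in neuroectoderm (NE) cells on day 3 of differentiation by comparing RNA-seq of 2 Tet3-/- samples with 3 Tet3+/+ samples, which are 5 of the 35 samples of the series. All cells derive from V6.5, a male mouse embryonic stem cell (ESC) line of mixed 129/C57BL/6 background. ESCs were kept on feeder cells with serum and LIF, freed of feeders by pre-plating and moved to gelatin, LIF was then withdrawn, and 1 µM retinoic acid (RA) was given for 72 h to both genotypes. The Tet3-/- cells lack exon 4 of Tet3 on both alleles after CRISPR/Cas9 editing with guides on either side of it, and the study describes the samples of both genotypes as independent clones, so that each sample is 1 clone and p-values measure the spread between clones.

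TET enzymes oxidize 5-methylcytosine, which opens the way to DNA demethylation, and TET3 is the member that comes up as ESCs leave pluripotency for neural fates. RA without LIF drives ESCs to neural progenitors, which carry Sox and Zic factors and then proneural basic helix-loop-helix factors such as the Neurogenins. Notch ligands and Hes repressors act between neighbouring progenitors to pace that step. The genes that follow are grouped by these roles, and then by the contractile, signaling and metabolic genes that moved beside them.

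Values are normalized counts, that is, reads per gene divided by a size factor of the sample, and are called counts where this is plain. Of the 17948 genes in the table, 17533 with a mean of at least 10 over the 5 samples were tested with limma on log2(normalized count + 1), and log2 differences are Tet3-/- minus Tet3+/+ on that scale. A differentially expressed gene (DEG) has a Benjamini-Hochberg adjusted p under 0.05 over all genes tested and a fold change above 1.5. Recovered reads per sample ranged from 36594650 to 42933595. Over all genes tested the median log2 difference was -0.01.

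The median of the genes of chromosome 8 stood at 0.17 above Tet3+/+ in Tet3-/- sample 1 and at -0.32 in sample 2, and Tet3+/+ sample 3 stood at 0.20 on chromosomes 8 and 14, where each Tet3+/+ sample is set against the others. On chromosome 14 the Tet3-/- samples stood at -0.12 and -0.11. The other chromosomes stayed between -0.07 and 0.09 in every sample. Differences of genes on chromosomes 8 and 14 therefore include a shift of the whole chromosome in some samples, and these genes are marked where they are named.

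The targeted gene, Tet3, had 4613, 4576 and 5020 normalized counts in Tet3+/+ cells against 1796 and 2329 in Tet3-/- cells. The groups did not overlap, and Tet3 fell by 1.21 on the log2 scale (SE 0.12, limma adjusted p = 0.014). The gene-level value covers all exons, so it does not measure exon 4 alone. Tet1 and Tet2, the other members of the family, had log2 differences of 0.01 (SE 0.15, limma adjusted p = 0.982) and 0.03 (SE 0.11, limma adjusted p = 0.907), and their groups overlapped. Tet3 was the 1 DEG among the 27 tested genes of DNA methylation and demethylation, and Dnmt1, the maintenance methyltransferase, had a log2 difference of -0.17 (limma adjusted p = 0.320).

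In all, 664 genes were DEGs, of which 460 were up (2.62% of the genes tested) and 204 down (1.16%). The median log2 difference was 0.91 among DEGs up and -0.85 among DEGs down, and 197 of the former and 77 of the latter moved by more than 1. In all 460 DEGs up and all 204 DEGs down the groups did not overlap. The lack of overlap given for single called genes therefore adds nothing to their calls. At an unadjusted p under 0.05, 4131 genes differed. The count moved with single samples. It was 408, 230 and 187 without Tet3+/+ sample 1, 2 or 3, and 848 and 1020 without Tet3-/- sample 1 or 2, where the 1 clone left is assumed to vary like the Tet3+/+ samples. DESeq2 on the recovered reads called 1070 genes, and a fit that shared the spread of the catalytic-mutant Tet3 m/m samples called 81. Without Tet3+/+ sample 1, 2 or 3, 3293, 2758 and 3192 of the 17533 genes tested had an unadjusted limma p under 0.05, in either direction. In the fit with Tet3 m/m 3552 did. Counts of list genes at an unadjusted p are to be read beside these numbers. Of the 41 gene lists, 36 held a DEG in the fit of the 5 samples, 33, 26 and 25 without Tet3+/+ sample 1, 2 or 3, and 16 in the fit with Tet3 m/m. With 2.62% of all genes tested up and 1.16% down, a list can hold a DEG by its size alone. The lists were also chosen with earlier results of these data known, so these counts do not measure how broad the change was.

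**Figure D1:**
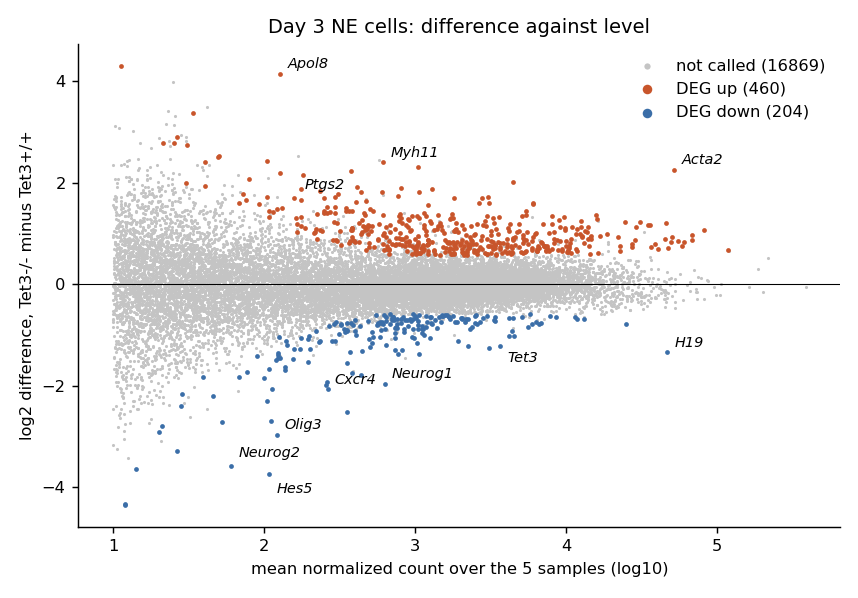
Difference against level for the 17533 genes tested: the x axis gives the mean normalized count over the 5 samples (log10), the y axis the log2 difference, Tet3-/- minus Tet3+/+, and each point is 1 gene. The 460 DEGs up and 204 DEGs down are coloured; Acta2 lies far to the right of the other large rises and Hes5 and Neurog2 are among the deepest falls.

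Among DEGs with a mean of at least 50, the 15 largest rises, predicted genes left out, were Apol8, Tmprss11f, Myh11, Actc1, Acta2, Ptgs2, Tnfrsf23, Egr3, Xkr4, Cnn1, Slitrk4, Adamtsl1, Fas, Wnt10b and Bdnf. Of the 15 largest falls, 14 are named here: Hes5, Neurog2, Olig3, Sostdc1, Srgn, Fgf15, Hkdc1, Cxcr4, Gdf10, Msx3, Neurog1, Rpph1, Zfp455 and Hoxa9. Of the first set, 4 are smooth muscle or cardiac contractile genes, and of the 14 falls named 3 are proneural or Notch genes. Among all DEGs, 13 of those up and 15 of those down carry the names of predicted genes and are only counted.

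Hes5 and Neurog2, of the proneural and Notch list, had the largest falls among DEGs with a mean of at least 50, predicted genes left out. Of 26 genes tested on that list, 5 fell and 0 rose, and 20 were lower (median log2 difference -0.38). Hes5, a repressor that Notch signaling switches on in neural progenitors, was at 139, 129 and 243 counts in Tet3+/+ and at 5.30 and 22.8 in Tet3-/-. Neurog2, which starts neuronal differentiation, was at 73.2, 123 and 92.9 in Tet3+/+ and at 8.48 and 5.69 in Tet3-/-. Both genes were clearly apart between the groups, with log2 differences of -3.75 (SE 0.57, limma adjusted p = 0.017) and -3.58 (SE 0.44, limma adjusted p = 0.015).

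Neurog1, its close relative, was at 837, 712 and 1148 in Tet3+/+ and at 238 and 214 in Tet3-/- (log2 difference -1.96, SE 0.21). The Notch ligand Dll1 went from 590, 687 and 934 to 433 and 345 (-0.90, SE 0.21). Neither group reached into the other for these genes, and Dll1 showed the smaller step. The receptors Notch1 (log2 difference -0.16), Notch2 (0.19) and Notch3 (0.12) and the repressor Hes1 (-0.30) did not pass the test. Leaving out Tet3+/+ sample 1, 2 or 3 gave 4, 4 and 3 falls on this list.

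Neural progenitor factors were lower as well. Of 28 tested, 6 fell, 2 rose and 23 were lower, with a median log2 difference of -0.66. Sox2, which maintains neural progenitors and is also a pluripotency factor, was at 3203, 4693 and 4041 counts in Tet3+/+ and at 2032 and 1350 in Tet3-/- (log2 difference -1.25, SE 0.20, limma adjusted p = 0.018). Zic1 went from 1080, 1448 and 1629 to 762 and 725 (-0.88), and Sox3, a relative of Sox2, from 1325, 1315 and 1653 to 973 and 656 (-0.83). In all 3 genes each Tet3-/- sample was below each Tet3+/+ sample. Zic5 (-1.29), on chromosome 14, Msi1 (-0.78), an RNA-binding protein of neural stem cells, and Dach1 (-0.72), also on chromosome 14, fell too.

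Not every progenitor gene was called down. Nes, the intermediate filament nestin, rose from 10354, 6667 and 11619 to 21181 and 19689 normalized counts (log2 difference 1.14, SE 0.20). Sox1, the classic marker of early neuroectoderm, was at 1063, 1810 and 3013 in Tet3+/+ and at 955 and 253 in Tet3-/-. Its log2 difference of -1.87 had an SE of 0.54 and a limma adjusted p of 0.081, and the gene lies on chromosome 8, where Tet3-/- sample 2 was low. Pax6 (-0.48, limma adjusted p = 0.152) and Zic2 (-0.87, limma adjusted p = 0.052, on chromosome 14) were also lower without passing the test. The number of falls on this list was 6, 1 and 1 without Tet3+/+ sample 1, 2 or 3, and 10 and 5 without Tet3-/- sample 1 or 2.

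Olig3, a bHLH factor of the dorsal neural tube, had 139, 187 and 225 normalized counts in Tet3+/+ and 10.6 and 45.5 in Tet3-/- (log2 difference -2.96, SE 0.54). Msx3, a dorsal neural tube homeobox gene, had 268, 388 and 432 against 151 and 52.4 (-1.99, SE 0.41), and Gdf10, a BMP-family ligand on chromosome 14, had 98.3, 153 and 245 against 38.2 and 34.2 (-2.07, SE 0.40). Wnt1, a signal of the dorsal midline and midbrain, had 393, 503 and 583 against 187 and 197 (-1.34, SE 0.20). These 4 genes are named because they were called, and in each of them the groups did not overlap. Msx1 (-1.21) and Tfap2b (-1.37), which are active at the neural border and in neural crest, fell as well, whereas Ets1 (1.20) and Ngfr (0.98) of the same 16-gene neural crest list rose.

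Some neuronal genes went the other way. Of 28 tested, 4 rose and 1 fell, and 18 were higher and 10 lower (median log2 difference 0.21). In single samples the list median was 0.27 and 0.23 in Tet3-/- and 0.17, -0.37 and 0.23 in Tet3+/+, each against the others. The list as a whole thus did not separate the groups, and its median difference was 0.06 without Tet3+/+ sample 2. Gap43, a growth cone protein, had 823, 499 and 656 normalized counts in Tet3+/+ and 1351 and 1380 in Tet3-/- (log2 difference 1.08, SE 0.19), and Stmn2, a microtubule regulator, had 916, 570 and 530 against 1410 and 1847 (1.31, SE 0.23). Dpysl3 (0.99) and Syt1 (1.48) were the other rises. Nhlh1, a bHLH factor of newborn neurons, had 179, 198 and 241 against 81.7 and 86.5 (-1.27, SE 0.25). Tubb3, a neuronal tubulin gene on chromosome 8, had a log2 difference of 0.27 and Dcx 0.32, and neither passed the test. The list had 3, 2 and 1 rises without Tet3+/+ sample 1, 2 or 3.

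**Figure D2:**
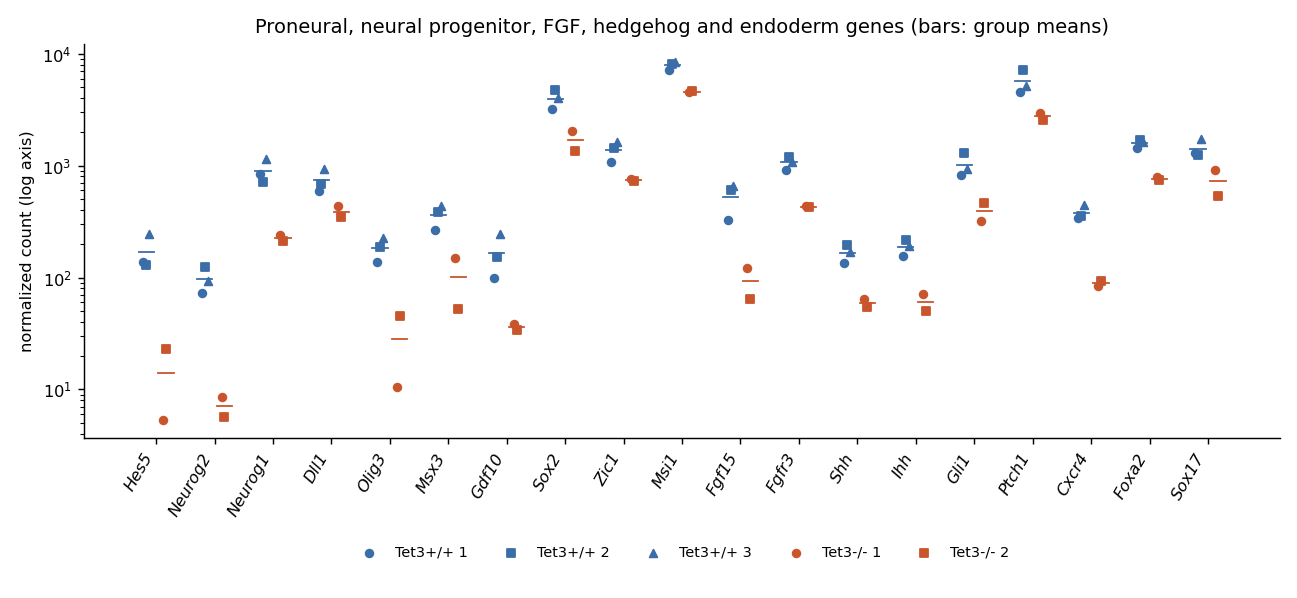
Normalized counts (log axis) of 19 genes that fell, in each of the 3 Tet3+/+ (blue) and 2 Tet3-/- (orange) samples, with bars at the group means. Olig3, Msx3 and Gdf10 are shown as members of the largest falls, and the others come from the proneural, neural progenitor, FGF, hedgehog and endoderm lists. Every orange point of a gene lies below its blue points, and the gap is widest for Hes5 and Neurog2.

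Signals that pattern the neural tube were among the falls. Of 14 hedgehog genes tested, 4 fell and 0 rose. Shh, the ventral signal, was at 135, 194 and 168 counts in Tet3+/+ and at 64.7 and 54.6 in Tet3-/- (log2 difference -1.45, SE 0.28). Ihh, another ligand, went from 154, 218 and 191 to 71.0 and 50.1 (-1.62, SE 0.29). Both ligands were at well under the lowest Tet3+/+ value in each Tet3-/- sample.

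The targets that report pathway activity moved the same way. Gli1 was at 827, 1295 and 928 in Tet3+/+ and at 319 and 462 in Tet3-/- (-1.38, SE 0.22, limma adjusted p = 0.019), and Ptch1, the receptor that hedgehog signaling induces, at 4541, 7198 and 5199 against 2966 and 2538 (-1.01, SE 0.18, limma adjusted p = 0.021). The signal transducer Smo (-0.23), the effector Gli2 (0.10) and the mostly repressive effector Gli3 (0.43) were not DEGs. The list had 3, 2 and 0 limma falls without Tet3+/+ sample 1, 2 or 3, and 5 of its genes were lower at an unadjusted p under 0.05 without sample 3.

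FGF genes were divided, with 3 of 30 up and 3 down. Fgf15, an FGF ligand of the developing neural tube, had 327, 603 and 651 normalized counts in Tet3+/+ and 121 and 63.8 in Tet3-/- (log2 difference -2.51, SE 0.36, limma adjusted p = 0.017). Fgfr3, a receptor of neural progenitors, had 918, 1205 and 1085 against 432 and 430 (-1.30, SE 0.15), and the 2 Tet3-/- values were nearly equal. Fgf3 (-1.49) was the third fall. Dusp6, a phosphatase that FGF signaling induces as feedback, went up from 4523, 3720 and 4756 to 7110 and 6411 (0.65, SE 0.12), with Fgf13 (1.05) and Spred3 (0.72). The FGF falls numbered 3, 2 and 2 and the rises 1, 0 and 0 in limma without Tet3+/+ sample 1, 2 or 3, where 8, 7 and 6 genes were higher at an unadjusted p under 0.05.

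Of 33 Hox genes, which RA induces in order along the clusters, 4 fell and 0 rose. Hoxa9 had 533, 518 and 777 normalized counts in Tet3+/+ and 225 and 133 in Tet3-/- (log2 difference -1.78, SE 0.27), and Hoxa6 had 124, 146 and 172 against 68.9 and 29.6 (-1.67, SE 0.39). Hoxd4 (-0.93) and Hoxd1 (-0.71) fell by less. The early responder Hoxb1 (0.02) and the RA-degrading enzyme Cyp26a1 (0.05) did not pass the test, nor did the receptors Rara (0.21) and Rarb (0.01, on chromosome 14). Among 24 tested genes of the RA pathway, the RA-binding proteins Crabp1 (-1.11) and Crabp2 (-0.74) fell and Tgm2 (0.94), a transglutaminase that RA induces, rose. Only 1 Hox gene was called when any Tet3+/+ sample was left out.

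Endoderm factors were mostly lower in Tet3-/-. Of 13 tested, 6 fell and 0 rose, and 9 were lower and 4 higher (median log2 difference -0.80). However, Cxcr4 on this list is a chemokine receptor that marks definitive endoderm and also serves in migrating neural cells. Cxcr4 was at 343, 351 and 445 counts in Tet3+/+ and at 84.8 and 93.4 in Tet3-/- (-2.07, SE 0.21, limma adjusted p = 0.014). Foxa2, a factor of endoderm and of the ventral midline, went from 1449, 1684 and 1631 to 785 and 745 (-1.05, SE 0.12), and Sox17 from 1285, 1246 and 1736 to 915 and 537 (0.499-fold, limma adjusted p = 0.041). Each group kept to its own range in these 3 genes. Gata4 (-0.88), on chromosome 14, and Foxa1 (-0.80) also fell, and Gata6 (0.72, limma adjusted p = 0.090) was higher without passing the test.

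The endoderm falls numbered 2 without any 1 of the Tet3+/+ samples. Of 15 visceral endoderm genes, 1 fell (Ihh), and of 18 genes of parietal endoderm and basement membranes 4 rose, namely Nid1 (1.20), Hspg2 (0.88), Thbd (0.86) and Sparc (0.74). Nid1, the matrix linker nidogen, was at 5327, 3643 and 4945 in Tet3+/+ and at 9856 and 11216 in Tet3-/-. Lama1, the laminin chain of early basement membranes, had a log2 difference of -0.65 and did not pass the test. The rises on that list numbered 3, 2 and 2 without Tet3+/+ sample 1, 2 or 3.

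Contractile genes were mostly higher in Tet3-/-. Of the 38 tested genes of actin, myosin and their transcription factor SRF, 22 rose and 0 fell, 37 were higher, and the median log2 difference was 0.88. SRF, with its actin-sensing partners the MRTFs, binds a site called the CArG box, made of a pair of C bases, a run of A or T bases and a pair of G bases, in the promoters of many of these genes. The stretches shown here carry the box of 5 called members, written 5′ to 3′ on the gene's strand and ending at the base before the RefSeq transcription start (build GRCm38.p6, whereas the authors aligned to mm39), with the box in capitals.
Actc1, chr2:114052876-114053125, minus strand: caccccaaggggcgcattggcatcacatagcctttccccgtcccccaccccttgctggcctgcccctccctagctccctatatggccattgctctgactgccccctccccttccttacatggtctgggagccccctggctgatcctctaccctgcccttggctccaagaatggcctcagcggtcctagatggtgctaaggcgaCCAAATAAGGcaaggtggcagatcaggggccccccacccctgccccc
Acta1, chr8:123894776-123895025, minus strand: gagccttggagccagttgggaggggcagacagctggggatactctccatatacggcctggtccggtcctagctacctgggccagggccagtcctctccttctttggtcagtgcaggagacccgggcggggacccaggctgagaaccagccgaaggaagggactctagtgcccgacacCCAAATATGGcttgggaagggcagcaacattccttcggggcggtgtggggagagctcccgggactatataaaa
Myl9, chr2:156775214-156775463, plus strand: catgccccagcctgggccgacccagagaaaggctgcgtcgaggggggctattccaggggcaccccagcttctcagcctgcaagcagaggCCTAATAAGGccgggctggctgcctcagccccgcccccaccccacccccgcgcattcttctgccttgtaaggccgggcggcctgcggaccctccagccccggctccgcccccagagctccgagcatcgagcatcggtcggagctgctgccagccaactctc
Cnn2, chr10:79988350-79988599, plus strand: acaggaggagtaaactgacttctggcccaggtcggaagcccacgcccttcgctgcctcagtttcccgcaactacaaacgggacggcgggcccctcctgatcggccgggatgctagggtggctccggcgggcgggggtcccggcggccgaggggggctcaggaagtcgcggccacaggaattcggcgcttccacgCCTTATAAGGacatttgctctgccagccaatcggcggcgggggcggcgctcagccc
Vcl, chr14:20929148-20929397, plus strand: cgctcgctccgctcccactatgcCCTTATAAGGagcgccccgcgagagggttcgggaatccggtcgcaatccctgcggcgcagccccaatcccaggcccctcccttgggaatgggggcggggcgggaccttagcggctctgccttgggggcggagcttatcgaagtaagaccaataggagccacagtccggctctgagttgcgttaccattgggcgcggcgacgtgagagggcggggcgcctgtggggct

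The box starts 47 bases before the transcription start in Actc1, 73 in Acta1, 161 in Myl9, 56 in Cnn2 and 227 in Vcl. The pattern of the box is the same on both strands, so 1 search covers both, although a single box can read differently on the other strand. In the 250 bases before the start, 10 of the 32 list genes with an entry in the RefSeq promoter table hold it, against 439 of all 27025 genes there (1.62%). The list was drawn up around SRF, so its share of the box is no separate support. Of the 10, 7 were called, with Fhl1 and Fhl2 beside the 5 shown, against 22 of 38 (57.9%) on the whole list. Among DEGs with an entry, 16 of 340 up (4.71%) and 2 of 144 down (1.39%) hold it, and the 16 include the 7 called list genes. These are counts of a motif and no measurement of SRF binding.

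Acta2, smooth muscle alpha-actin, was at 30084, 8877 and 29859 counts in Tet3+/+ and at 90774 and 101009 in Tet3-/-. Its log2 difference was 2.26 (SE 0.45, limma adjusted p = 0.028), about 4.79-fold. Myh11, the smooth muscle myosin heavy chain, was at 239, 114 and 368 against 1440 and 917 (2.41, SE 0.42), and Actc1, cardiac actin, at 546, 186 and 603 against 2093 and 1822 (2.31, SE 0.43). The groups were far apart, and Tet3+/+ sample 2 was the lowest of the 5 in each of these genes. Cnn1, the actin-binding calponin of smooth muscle, showed the same order with 2725, 861 and 3002 against 7267 and 8237 (2.01, SE 0.45).

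The rises were not restricted to muscle isoforms. Actb, the general cytoplasmic actin, was at 99909, 81223 and 102993 in Tet3+/+ and at 167559 and 135119 in Tet3-/- (0.68, SE 0.14), Myh9, a non-muscle myosin, rose by 0.76 and Flna, the actin crosslinker filamin A, by 1.07. The sarcomeric Acta1 (1.60), on chromosome 8, Myl9 (1.59), the LIM proteins Csrp1 (1.38) and Fhl2 (1.37), the focal adhesion proteins Vcl (0.89), on chromosome 14, and Zyx (0.90), and the tropomyosins Tpm1 (0.98) and Tpm2 (1.18) rose too. Tagln (1.33, limma adjusted p = 0.054) and Actg2 (2.45, limma adjusted p = 0.057) were higher without passing the test. Of the regulators, Mrtfb rose by 0.59, while Srf (0.47), Mrtfa (0.33) and Myocd (0.88) were not called.

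In single samples, the median of the list stood at 0.89 and 0.88 above Tet3+/+ in the Tet3-/- samples and at 0.25, -0.57 and 0.24 in the Tet3+/+ samples, each against the others. Tet3+/+ sample 2 thus was the low one throughout the group, and 21 of the 38 genes were called without it. Without Tet3+/+ sample 1 or 3 the count was 16 each time, and it was 20 and 24 without Tet3-/- sample 1 or 2. In the Tet3 m/m samples the median was 0.68, 0.46 and 0.13 against the same Tet3+/+ samples. The limma fit with all 3 genotypes, in which the spread of those samples enters, called 0 of the 38 genes (33 were higher at an unadjusted p under 0.05), and edgeR and DESeq2 on the recovered reads of the 5 samples called 23 each.

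**Figure D3:**
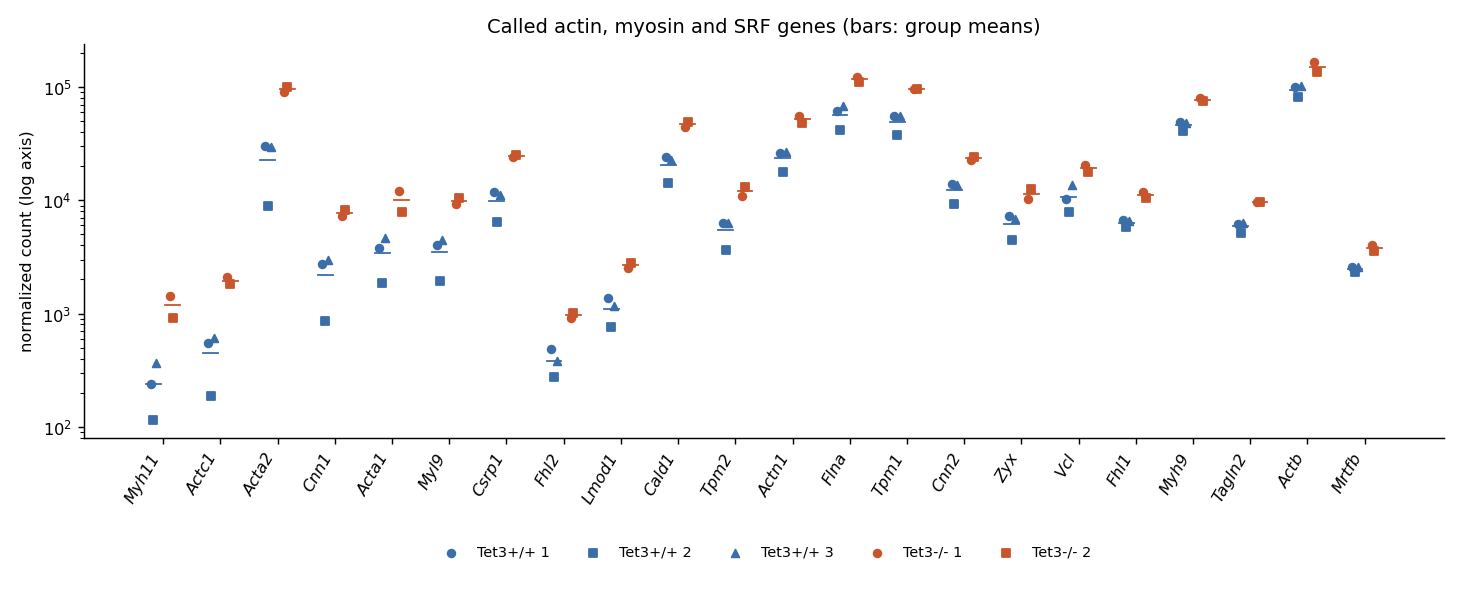
Normalized counts (log axis) of the 22 called genes of the actin, myosin and SRF list in each of the 3 Tet3+/+ (blue) and 2 Tet3-/- (orange) samples, with bars at the group means. All orange points of a gene lie above its blue points, and Tet3+/+ sample 2 (blue square) is the lowest point of every gene.

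Immediate early genes, which serum and growth factor signaling switch on within minutes and of which several are themselves SRF targets, rose with them. Of 20 tested, 12 rose and 0 fell (median log2 difference 0.89). Atf3, a stress-induced bZIP factor, was at 1599, 1185 and 1607 counts in Tet3+/+ and at 4712 and 4789 in Tet3-/- (1.71, SE 0.14, limma adjusted p = 0.014). Egr3, a zinc-finger factor on chromosome 14, was at 69.4, 62.6 and 87.0 against 245 and 435 (2.16, SE 0.31), and its relative Egr1 at 7405, 8277 and 8247 against 13558 and 21203 (1.09, SE 0.17). Tet3-/- sample 2 was the higher of the pair in both Egr genes, while the Atf3 values of the pair nearly coincided.

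Of the AP-1 subunits, Fosl2 rose by 1.46, Junb, on chromosome 8, by 1.19 and Fos by 0.85. Fosl1 had 4.82, 8.41 and 3.95 counts in Tet3+/+ and 36.1 and 53.5 in Tet3-/- (2.80, SE 0.63), a low level whose log2 difference depends on the pseudocount. Jun (-0.01), Fosb (-0.04) and Jund (-0.05, on chromosome 8) did not pass the test. The list had 8, 6 and 7 rises without Tet3+/+ sample 1, 2 or 3 and 5 in the fit with all 3 genotypes.

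Genes of adhesion and of mechanical signaling showed the same direction. Of 23 targets of YAP and TEAD, factors that act when cells are spread or stretched, 6 rose and 0 fell. Ccn2, a matricellular protein, was at 3529, 2087 and 3999 counts in Tet3+/+ and at 8947 and 6817 in Tet3-/- (log2 difference 1.34, SE 0.25). Tgfb2 (1.30), Myof (1.20), Crim1 (1.05), the tissue factor gene F3 (1.00) and the receptor kinase Axl (0.90) were the other rises, whereas Ccn1 (0.52) and Ankrd1 (1.15) were not called. The count was 6, 5 and 4 without Tet3+/+ sample 1, 2 or 3, and 0 in the limma fit with all 3 genotypes, where 12 genes were higher at an unadjusted p under 0.05.

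Fn1, which encodes fibronectin, was at 32660, 24517 and 33146 counts in Tet3+/+ and at 75720 and 62187 in Tet3-/- (log2 difference 1.20, SE 0.15, limma adjusted p = 0.015). It was 1 of 5 rises among 17 genes of the cadherin switch and its integrins, beside the integrin subunits Itgb1 (0.90), on chromosome 8, Itga5 (0.86) and Itgav (0.66) and the cadherin Cdh11 (0.76), also on chromosome 8. Itga5 and Itgb1 form the main fibronectin receptor. Cdh1 (0.48, on chromosome 8) and Cdh2 (0.36), the epithelial and neural cadherins, and the repressors Snai1 (-0.44) and Snai2 (-0.06) did not pass the test. The rises numbered 3 without any 1 of the Tet3+/+ samples.

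Of 39 collagen genes 6 rose and 0 fell, led by Col12a1 (1.32), Col1a1 (1.29), Col3a1 (1.26) and Col5a2 (1.14). Col1a1, the main chain of fibrillar collagen, was at 13817, 7293 and 9844 counts in Tet3+/+ and at 21860 and 27189 in Tet3-/-. The number of collagen rises was 3 without Tet3+/+ sample 2 and 1 without sample 3. Of 10 tested markers of feeder fibroblasts, which pre-plating was meant to remove, all were higher in Tet3-/- and 2 rose (Col1a1 and Col3a1). Their summed level was 18967 to 30017 in Tet3+/+ and 44829 and 50093 in Tet3-/-. Dcn (0.05) and Thy1 (0.37), which are also fibroblast markers, did not pass the test. Whether such cells contribute to the collagen and contractile values was not tested, and in bulk RNA a change in the share of a cell type and a change per cell cannot be told apart.

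Of 9 caveolar genes 3 rose, with Cavin3 at 1.23, Cavin1 at 0.76 and Ehd2 at 0.73, and 0 fell. Cav1, the main protein of caveolae, was at 92.5, 31.8 and 73.1 counts in Tet3+/+ and at 260 and 155 in Tet3-/- (log2 difference 1.72, limma adjusted p = 0.067). The count of limma rises was 0 without Tet3+/+ sample 2 or 3 or without Tet3-/- sample 1, and 6 of the 9 were higher at an unadjusted p under 0.05 each time. Of 28 genes of muscle membranes and calcium handling, 5 rose, among them Jph2, a junction protein of muscle cells, with 1307, 554 and 1147 against 2830 and 3273 (1.69, SE 0.31), Csrp3 (2.90, at under 60 counts in every sample), Cacna1c (1.04) and Dysf (0.82). That limma count was 3, 1 and 0 without Tet3+/+ sample 1, 2 or 3, and 9 genes were higher at an unadjusted p under 0.05 without sample 3.

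Markers of mesodermal cell types did not move as a group. Of 27 tested factors of primitive streak and mesoderm, 1 rose and 2 fell, and the median log2 difference was -0.02. Wnt3 rose by 1.41, and Osr1 (-0.88) and Hand2 (-0.93, on chromosome 8) fell. The mesodermal Hand1 (0.38) and Tbx6 (-0.18) did not pass the test. Of 25 endothelial genes 2 rose, namely Mcam (1.04) and Eng (0.96), while the endothelial markers Cdh5 (-0.75, on chromosome 8), Pecam1 (-0.29) and Kdr (0.32) did not pass the test.

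**Figure D4:**
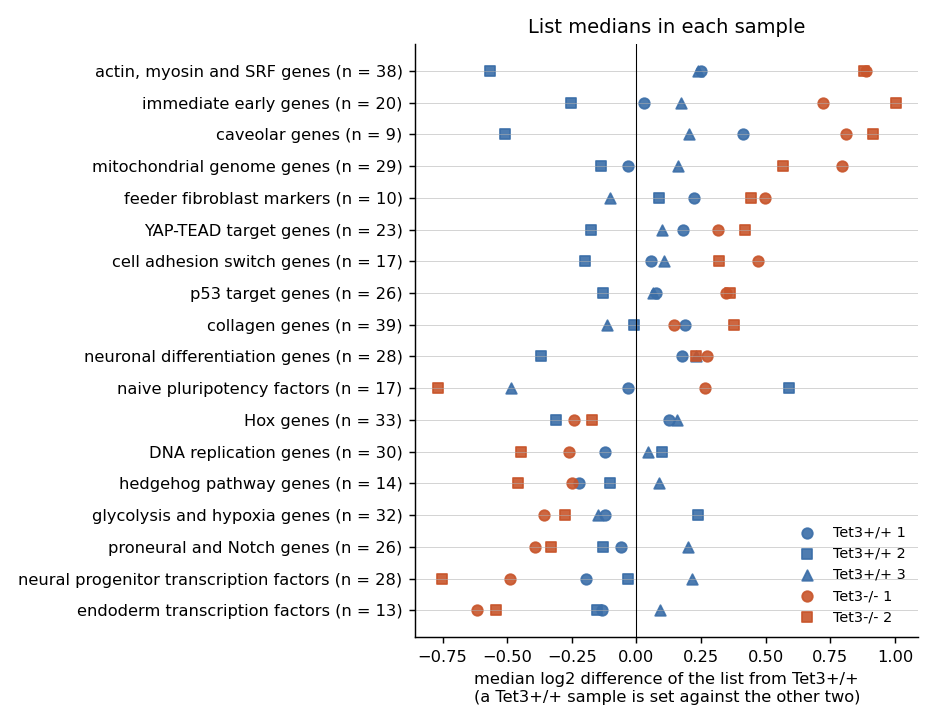
Median log2 difference of 18 gene lists in each sample (x axis, with n the genes tested), for the 2 Tet3-/- samples (orange) against the Tet3+/+ mean and for each of the 3 Tet3+/+ samples (blue) against the other Tet3+/+ samples. Both orange points lie to the right of all blue points for the actin, immediate early and p53 lists and to the left for the endoderm, progenitor and proneural lists, while the orange points of the naive pluripotency factors lie on either side of 0.

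Some target genes of p53 were higher in mRNA, while p53 protein and its activity were not measured. Of 26 p53 targets 7 rose and 0 fell, and 23 were higher (median log2 difference 0.32). Fas, a death receptor, was at 109, 45.8 and 105 counts in Tet3+/+ and at 241 and 372 in Tet3-/- (1.88, SE 0.40), and Mdm2, which ubiquitinates p53, at 11020, 9833 and 10896 against 19348 and 21544 (0.95, SE 0.09, limma adjusted p = 0.014). Cdkn1a, the cell cycle inhibitor p21, was at 10238, 8275 and 9455 against 14713 and 15605 (0.71, SE 0.10). These genes showed no overlap, and Mdm2 had the smallest spread of the 3. Plk2 (1.04), Perp (1.02), Pmaip1 (0.95) and Btg2 (0.83) also rose, while Bax (0.06) and Trp53 itself (-0.02) did not pass the test. The list had 6, 5 and 3 rises without Tet3+/+ sample 1, 2 or 3, and 0 in the limma fit with all 3 genotypes, where 12 genes were higher at an unadjusted p under 0.05.

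All 30 tested genes of DNA replication were lower in Tet3-/-, with a median log2 difference of -0.35, but 1 was a DEG. That gene, Gins2, a subunit of the replicative helicase on chromosome 8, was at 1745, 2002 and 1938 counts in Tet3+/+ and at 1390 and 1107 in Tet3-/- (-0.61, SE 0.13). Pcna, the sliding clamp, had a log2 difference of -0.42 and Mcm2 one of -0.23, both under the 1.5-fold threshold. Cdk6, a G1 kinase, rose by 0.75 and Ccnd1, cyclin D1, had a log2 difference of -0.52 and was not called.

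Of 32 glycolysis and hypoxia genes, 6 fell, 1 rose and 24 were lower. Aldoc, an aldolase, was at 609, 766 and 595 counts in Tet3+/+ and at 235 and 323 in Tet3-/- (log2 difference -1.24, SE 0.19). Ldha, lactate dehydrogenase A, was at 26836, 34797 and 28644 against 15629 and 19256 (-0.79, SE 0.13), and Pdk1, which holds pyruvate out of the mitochondria, at 2861, 3713 and 3082 against 1662 and 2205 (-0.74, SE 0.15). Tet3+/+ sample 2 was the highest in all 3 genes. Ankrd37 (-1.11, on chromosome 8), Pfkl (-0.65) and Ddit4 (-0.64) fell and Adm, adrenomedullin, rose by 1.31. The limma falls numbered 2, 0 and 1 without Tet3+/+ sample 1, 2 or 3, where 16, 14 and 19 genes were lower at an unadjusted p under 0.05, and 12 without Tet3-/- sample 2.

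Of 29 genes of the mitochondrial genome 9 rose and 0 fell, with a median log2 difference of 0.63. mt-Nd2, a complex I subunit, was at 20996, 17605 and 20618 counts in Tet3+/+ and at 45274 and 40468 in Tet3-/- (1.12, SE 0.11). The fit with all 3 genotypes called 1 of them. The summed level of the 29 genes was 322385 to 388415 in Tet3+/+ and 614907 and 566605 in Tet3-/-, which also is a sign used for RNA quality. This shift stood beside all rises described here, and its part in them was not tested.

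Pluripotency genes did not move as a group. Of 17 naive factors 0 were called by limma, edgeR or DESeq2, and limma gave 1 an unadjusted p under 0.05. Their median log2 difference was -0.23, with 0.27 in Tet3-/- sample 1 and -0.77 in sample 2. Nanog was at 1357, 1856 and 949 counts in Tet3+/+ and at 1787 and 709 in Tet3-/-, so the groups overlapped. Of 15 core and primed genes 1 fell, namely Sox2, and of 21 germline genes under methylation control 0 were called by limma, edgeR or DESeq2, with 2 at an unadjusted limma p under 0.05. The 6 markers of undifferentiated ESCs summed to 6504 to 8944 in Tet3+/+ and to 8878 and 7271 in Tet3-/-. The 4 blood markers were in none of the rows of the table.

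H19, an imprinted noncoding RNA, was at 63604, 62229 and 57756 counts in Tet3+/+ and at 19088 and 30555 in Tet3-/- (log2 difference -1.34, SE 0.17, limma adjusted p = 0.015). It was the 1 fall among 42 imprinted genes, of which Slc38a4 (0.70) and Igf2r (0.65) rose. Igf2, the neighbour of H19 that is expressed from the other parental allele, had a log2 difference of 0.35 and did not pass the test. Among DEGs with a mean of at least 50, predicted genes left out, Apol8 showed the largest rise, from 10.6, 30.8 and 10.9 to 243 and 346 (4.15, SE 0.51, limma adjusted p = 0.015).

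Ptgs2, which encodes the inducible cyclooxygenase, was at 247, 74.7 and 171 counts in Tet3+/+ and at 829 and 575 in Tet3-/- (log2 difference 2.23, SE 0.43). Bdnf, a neurotrophin, was at 131, 63.5 and 165 against 490 and 327 (1.84, SE 0.39), and Wnt10b, a Wnt ligand, at 921, 349 and 669 against 1654 and 2924 (1.87, SE 0.37). Both Tet3-/- samples exceeded each Tet3+/+ sample in these genes, and Tet3+/+ sample 2 was again the lowest. Of 58 Wnt pathway genes, 4 rose and 3 fell. Wnt11 (1.34) was among the rises, and Notum (-1.04), a secreted Wnt antagonist, and Sfrp2 (-0.76), another one, were lower with Wnt1. Without Tet3+/+ sample 2 or 3 limma called 0 Wnt genes, with 9 and 8 higher and 9 and 10 lower at an unadjusted p under 0.05, and without sample 1 it called 7 up and 1 down. Without Tet3-/- sample 2 it called 0 up and 2 down. Of 30 BMP pathway genes, Bmp8b rose by 1.07 and Bmp4, on chromosome 14, fell by 0.65, and neither limma call held without any 1 of the Tet3+/+ samples.

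Of the other leading rises, Adamtsl1, a matrix protein, was at 423, 285 and 462 counts in Tet3+/+ and at 1480 and 1367 in Tet3-/- (log2 difference 1.90, SE 0.21). Slitrk4, a neuronal membrane protein, was at 324, 112 and 186 against 617 and 824 (1.91, SE 0.38), and Tnfrsf23, a decoy receptor for the death ligand TRAIL, at 59.8, 29.0 and 77.1 against 240 and 236 (2.19, SE 0.41). The Tet3-/- samples were far above the others in each, and closest to one another in Tnfrsf23. The protease gene Tmprss11f (2.53, SE 0.46) and Xkr4 (2.08, SE 0.37) rose at levels of at most 161 counts.

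Of the other leading falls, Sostdc1, a secreted antagonist of BMP and Wnt signals, was at 71.3, 118 and 53.4 counts in Tet3+/+ and at 12.7 and 9.11 in Tet3-/- (log2 difference -2.72, SE 0.48). Srgn, a proteoglycan of secretory granules, was at 106, 180 and 215 against 14.8 and 38.7 (-2.69, SE 0.47), and Hkdc1, a relative of the hexokinases, at 88.7, 205 and 170 against 25.5 and 33.0 (-2.29, SE 0.41). Both Tet3-/- samples stayed below each Tet3+/+ sample in these genes. Rpph1 (-1.84, SE 0.34), the RNA of RNase P, on chromosome 14, and the zinc-finger gene Zfp455 (-1.82, SE 0.35) fell too.

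Of 23 genes of Nodal and TGF-beta signaling 5 rose and 0 fell. Inhba, a subunit of activin (log2 difference 1.46), Tgfb2, Skil (0.67) and Tgfbr2 (0.63) were among the rises, which numbered 4, 2 and 1 without Tet3+/+ sample 1, 2 or 3. Of 65 axon guidance genes 5 rose, led by Epha2 (1.03) and Nrp1 (0.97, on chromosome 8), and the median of that list was -0.15. The axon guidance rises numbered 4, 2 and 1 without Tet3+/+ sample 1, 2 or 3. Of 18 trophoblast and keratin genes the simple epithelial keratins Krt8 (0.94) and Krt18 (0.80) rose. Among 31 interferon genes Gbp2 (1.35) rose, and among 22 stress genes Ddit3 (1.16) and Dnajb9 (0.62) rose. Without any 1 of the Tet3+/+ samples limma called 0 stress genes, with 6 higher at an unadjusted p under 0.05 each time. Of all 17533 genes tested, 3293, 2758 and 3192 differed at that level in either direction without Tet3+/+ sample 1, 2 or 3. Of 28 cholesterol and fatty acid genes, limma and edgeR called 0 and DESeq2 1, and 6 were lower at an unadjusted limma p under 0.05.

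The same genotypes were also sequenced after transfection with an empty vector, in samples that the day 3 calls did not use. The labels do not say whether the clones were the same. Per the methods, the Dnmt1 experiment transfected ESCs as differentiation began and selected them with blasticidin before collection, and the Tet3-CD experiment transfected differentiating cells and collected them a day past day 3, so treatment in both and stage in the latter differ from the day 3 samples. In the Dnmt1 overexpression experiment, 2 Tet3-/- and 2 Tet3+/+ samples carried the empty vector, and over 16988 tested genes both Tet3-/- samples were above both Tet3+/+ samples for 40.9% and below for 36.8%. Of 456 DEGs up on day 3 that were measured there, 418 (91.7%) were above, with a median log2 difference of 0.92. Of 203 DEGs down, 129 (63.5%) were below and 47 (23.2%) above, with a median of -0.32. The rises on day 3 thus returned more often than the background share, and the falls did so to a lesser extent. The Tet3-CD experiment had 1 empty-vector sample per genotype and no replicate. There, 252 of 458 DEGs up were higher in Tet3-/- (median 0.07) and 116 of 204 DEGs down were lower (median -0.08). Over all 16917 tested genes the median there was 0.001, and the share of all genes that were higher was not counted. On day 3 the medians of the DEGs up and down were 0.91 and -0.85.

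Acta2 was at 8759 and 8250.5 normalized counts in empty-vector Tet3+/+ and at 47864 and 44240 in empty-vector Tet3-/- of the Dnmt1 experiment, but at 15508 and 10581 in the single samples of the Tet3-CD experiment. Of the 38 contractile genes, 33 were above in the former (median 0.68), and 20 were higher in the latter (median 0.02). All 19 immediate early genes measured were above in the Dnmt1 experiment (median 1.10). The proneural genes differed from day 3. Neurog1 was at 60.3 and 97.4 in empty-vector Tet3+/+ and at 281 and 264 in Tet3-/-, and Hes5 at 20.7 and 19.7 against 59.3 and 52.9, so both were higher in Tet3-/- there.

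Gli1 kept its direction in both, with 1709 and 1553 against 627 and 628 in the Dnmt1 experiment and 1663 against 639 in the Tet3-CD experiment. Sox17 did so as well, with 2155 and 2275 against 1412 and 1326 and then 6065 against 2159. Their lists were mixed in the Dnmt1 experiment. Of 14 hedgehog genes 6 were above and 6 below, and of 13 endoderm factors 3 were above and 8 below. Among the day 3 falls, Shh (log2 difference 1.04), Foxa1 (0.70), Foxa2 (0.60) and Cxcr4 (0.44) were higher in Tet3-/- there. Ihh (-2.18), Ptch1 (-0.92) and Gata4 (-2.29) were lower. The glycolysis and hypoxia genes were below in 31 of 32 cases in the Dnmt1 experiment (median -1.02). Tet3 was at 2957 and 3075 against 2520 and 2571 in the Dnmt1 experiment, a log2 difference of -0.24, and at 4755 against 2070 in the Tet3-CD experiment. Nanog was at 5286 and 5275 in empty-vector Tet3+/+ of the Dnmt1 experiment and at 526 and 567 in Tet3-/-. Day 3 cells did not show this gap. All 17 naive pluripotency factors (median -2.62) and all 21 germline genes (median -2.36) were below in that experiment, against 36.8% of all genes. Of 27 neuronal genes 20 were above and 1 below, and of 33 Hox genes 24 were above and 6 below, against 40.9% of all genes above. The part of these differences in the other values of the Dnmt1 experiment was not tested.

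**Figure D5:**
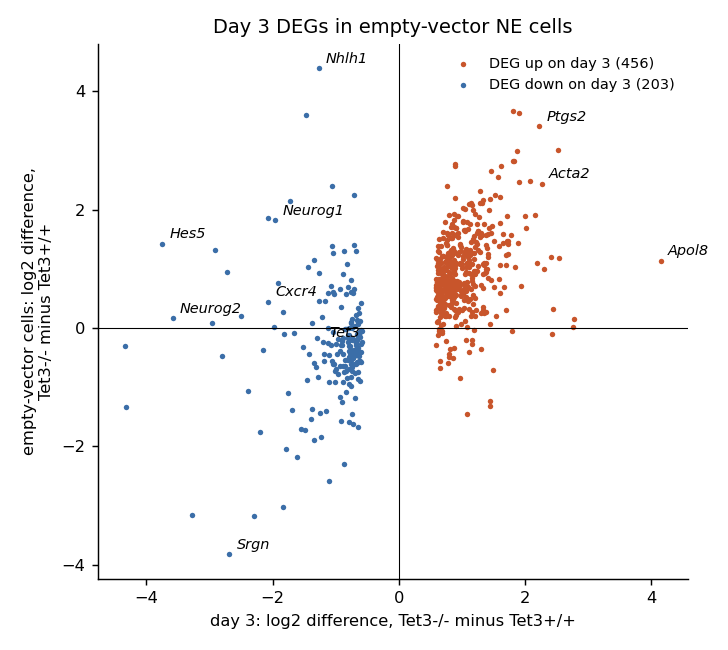
Log2 difference, Tet3-/- minus Tet3+/+, of the day 3 DEGs on day 3 (x axis, 2 against 3 samples) and in empty-vector cells of the Dnmt1 experiment (y axis, 2 against 2), 1 point per gene. Of the 456 DEGs up (orange) 418 had both empty-vector Tet3-/- samples above both Tet3+/+ samples, whereas the 203 DEGs down (blue) lie on both sides of 0, with Hes5 and Neurog1 above it.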

How the data were processed

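RNA-seq of day 3 NE cells was analysed for 3 Tet3+/+ and 2 Tet3-/- samples. Per the study's methods and processing notes, the authors trimmed reads with Trim Galore 0.6.7, aligned them to mm39 with STAR 2.7.9a, assigned them to genes with featureCounts by largest overlap, and normalized the counts with DESeq2. The processing notes also list mm10. The deposited signal values are those normalized counts: dividing each day 3 sample by the value of a single read returned whole numbers for 100% of entries (tolerance 0.01), which recovers the reads (36594650 to 42933595 per sample). Intervals from such counts would cover counting error only, and none are given. Genes of low level had been left out of the deposited table.

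Group differences were fitted with limma 3.58.1 (R 4.3.3, empirical Bayes trend) to log2(value + 1), for genes with a mean of at least 10 over the 5 samples. DEGs pass an adjusted p of 0.05 (Benjamini-Hochberg over all genes tested) and a 1.5-fold change. Alternatives were a pseudocount of 0.1 or 5, a filter at a mean of 50 or none at all, TMM rescaling, edgeR 4.0.16 (quasi-likelihood) and DESeq2 1.42.0 on recovered reads, all 3 genotypes in one fit, no fold threshold, the replicate block, and each sample left out. Leaving out the genes of chromosomes 8 and 14 was chosen after seeing the data.

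Named are the Tet genes, the 15 largest rises and 15 largest falls among DEGs without overlap and with a mean of at least 50 (no predicted genes), and members of 41 gene lists (up to 4 called per direction, and defining members), of which 5 are not reported here. Members and lists were chosen with earlier results of these data known, so no list was tested. Chromosomes were taken by symbol or synonym from RefSeq (GRCm38.p6, 93.1% of genes tested matched), whose positions are used only for its own promoter sequences. Empty-vector samples of the other experiments are described without a test, and 12 further columns were not used here. The 2 empty-vector Tet3+/+ columns of the Dnmt1 experiment carry the same name and were used as a pair without order. The fits were checked on simulated data. Python 3.11.15, numpy 2.4.6, pandas 2.3.3 and matplotlib 3.10.9 were used.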

Additional observations from a re-analysis of the deposited data

Results flagged for a closer look

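Of 126 named DEGs that were also measured in empty-vector cells of the Dnmt1 experiment, 22 had values that did not overlap between the genotypes there and lay on the other side from day 3. The difference between the 2 experiments was not tested. Of the genes down on day 3, the empty-vector log2 differences, Tet3-/- minus Tet3+/+, were 4.39 for Nhlh1, 1.85 for Gdf10, 1.82 for Neurog1, 1.43 for Hes5, 1.30 for Zic1, 1.27 for Notum, 1.15 for Wnt1, 1.04 for Shh, 0.94 for Sostdc1, 0.91 for Osr1, 0.66 for Hoxd1, 0.66 for Hoxd4, 0.60 for Foxa2, 0.34 for Bmp4, 0.20 for Fgf15 and 0.19 for Msx1. Nhlh1 rests on low counts there, with 15.8 and 0 against 94.2 and 76.2. Of the genes up on day 3, the values were -0.85 for Eng, -0.67 for Dusp6, -0.36 for Adm, -0.28 for Ddit3, -0.22 for Sparc and -0.13 for Dnajb9. Genes of the contractile list are in neither set.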

How the results depend on the processing

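With 2 against 3 samples, the count of DEGs moved with the samples and with the spread that entered the fit, while pseudocounts, filters, TMM rescaling and edgeR gave 640 to 679 DEGs against 664. DESeq2 called 1070 DEGs (726 up, 344 down), of which 656 were shared with limma in the same direction. The fit with all 3 genotypes called 81 (60 up, 21 down), all of them shared. With no fold change threshold, 336 were down. Leaving out each sample in turn gave 187 to 1020 DEGs, 157 to 509 up and 29 to 548 down, and 46.3% to 87.4% of them were up. Among 179 called list members and leading DEGs, 122, 85 and 72 were still called without Tet3+/+ sample 1, 2 or 3. The replicate block still called 127 of them and the fit with all 3 genotypes 27. The direction of each held in every setting. Where the groups do not overlap, as in every DEG here, leaving out a sample or changing the pseudocount cannot reverse it. Without the genes of chromosomes 8 and 14, 616 DEGs were counted. Replicate numbers do not pair the samples, since the Tet3-/- samples are clones, and replicate 1 minus replicate 2 correlated at -0.09 between the genotypes over genes. The replicate block, which leaves Tet3+/+ sample 3 without a partner, gave 445 DEGs with 94 down. It also gave list medians of -0.42 (neural crest), -0.54 (endoderm factors), 0.087 (streak and mesoderm), 0.14 (muscle membrane), 0.080 (BMP) and 0.048 (FGF), and a mean of at least 50 gave -0.25 (neural crest) and 0.033 (streak and mesoderm). With each sample left out, list medians ranged from -0.42 to -0.25 (neural crest genes), -0.19 to -0.028 (retinoic acid pathway genes), -0.80 to -0.54 (endoderm transcription factors), -0.26 to 0.083 (visceral endoderm genes), -0.019 to 0.087 (streak and mesoderm factors), 0.14 to 0.30 (muscle membrane and calcium genes), 0.029 to 0.11 (BMP pathway genes), 0.048 to 0.26 (Nodal and TGF-beta genes), 0.0097 to 0.048 (FGF pathway genes), -0.10 to -0.0091 (DNA methylation and demethylation genes), -0.0067 to 0.064 (imprinted genes), -0.0026 to 0.37 (interferon and antigen presentation genes), -0.31 to 0.042 (cholesterol and fatty acid genes), 0.077 to 0.31 (stress response genes), -0.32 to 0.34 (undifferentiated ESC markers), 0.33 to 0.61 (feeder fibroblast markers) and 0.53 to 0.79 (mitochondrial genome genes). The causes of these shifts were not tested. Changes of under 1.5-fold cannot be called here, and in the simulation of this design a part of the changed genes was missed.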
